A study of Mus musculus with 2 samples.

Results

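The cells described here are gWAT progenitors chosen by a high score over the RNA of 4 genes, Tnfrsf11b, Has1, Sfrp4 and Nptx2. Has1 was detected in nearly all of them and the 4 genes together in few. The score is the mean of ln(1 + UMIs per 10000) of the 4 genes, where a UMI is a unique molecular identifier and stands for 1 captured RNA molecule. The 400 cells with the highest score were taken from 7010 gated cells of both libraries, which were 7010 of 17404 barcodes in all. The gate required more than 1000 and fewer than 7000 genes, under 8% mitochondrial UMIs, fewer than 5 UMIs of the mesothelial genes Msln, Upk3b, Krt19, Lrrn4 and Upk1b, under 1% immunoglobulin UMIs (Igkc, Ighm, Igha, Jchain), fewer than 3 UMIs of Calca and Ncam1, and fewer than 10 UMIs of Pi16 and Dpp4. The chosen cells are called members below, and the other 6610 gated cells the rest of the gate.

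The cells came from gWAT (gonadal white adipose tissue) of 18-month-old male p16-CreERT2/Rosa26-LSL-tdTomato mice, all given tamoxifen. In these mice Cre is driven from the p16 gene, so tdTomato marks cells that transcribed p16 at the time of tamoxifen and their descendants. CD31- CD45- cells were sorted into tdTomato-positive (Tom+) and tdTomato-negative (Tom-) fractions, and 1 droplet library was sequenced from each. How many mice each library pools is not given in the sources used here. The Tom+ library held 61119807 UMIs in 5566 barcodes and the Tom- library 96872394 UMIs in 11838 barcodes. With 1 library per fraction there is no replicate error and no test, and the sorted fraction cannot be told apart from the preparation. All intervals are exact 95% intervals and cover counting error only.

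Has1 encodes a hyaluronan synthase of the plasma membrane, which joins UDP-glucuronic acid and UDP-N-acetylglucosamine into a long polysaccharide of the extracellular matrix. Tnfrsf11b encodes osteoprotegerin, a secreted decoy receptor for RANKL and TRAIL. Sfrp4 encodes a secreted Wnt antagonist, and Nptx2 a secreted pentraxin. In adipose tissue, interstitial progenitors marked by Dpp4 and Pi16 lie in the connective tissue septa and can give rise to committed preadipocytes, which carry Icam1, Pparg and Fabp4.

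By the GENCODE M21 annotation of GRCm38, the build that the authors' mm10 alignment names, Has1 (ENSMUSG00000003665) lies on chromosome 17 from 17843323 to 17855205, minus strand. Tnfrsf11b (ENSMUSG00000063727) lies on chromosome 15 from 54250619 to 54278484, minus strand, Sfrp4 (ENSMUSG00000021319) on chromosome 13 from 19623104 to 19632994, plus strand, and Nptx2 (ENSMUSG00000059991) on chromosome 5 from 144545902 to 144557478, plus strand. The promoters of 5 genes that lead the results below are shown because these genes were high together in the members: Has1, Ugdh and Uap1 of hyaluronan synthesis, and Il6 and Ptgs2 of the inflammatory genes. Each run holds 250 bases before and 50 bases from the annotated start, from RefSeq on GRCm38.p6, read 5′ to 3′ on the strand of the gene. The windows are chr17:17855139-17855438 (minus strand) for Has1, chr5:65435793-65436092 (minus strand) for Ugdh, chr1:170174915-170175214 (minus strand) for Uap1, chr5:30012864-30013163 (plus strand) for Il6 and chr1:150099781-150100080 (plus strand) for Ptgs2. Capitals mark matches to 6 motifs searched on both strands: the cAMP response element TGACGTCA, the AP-1 site TGANTCA, the NF-kappaB site (GGGA, any base, TTTCC), the CCAAT box, the TATA box TATAAA and the GC box GGGCGG.
Has1: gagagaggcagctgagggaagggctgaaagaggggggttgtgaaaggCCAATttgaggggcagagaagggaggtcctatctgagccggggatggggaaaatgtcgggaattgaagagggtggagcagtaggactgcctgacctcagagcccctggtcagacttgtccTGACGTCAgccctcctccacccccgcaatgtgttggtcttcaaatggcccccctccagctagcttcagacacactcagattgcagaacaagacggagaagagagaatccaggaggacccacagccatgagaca
Ugdh: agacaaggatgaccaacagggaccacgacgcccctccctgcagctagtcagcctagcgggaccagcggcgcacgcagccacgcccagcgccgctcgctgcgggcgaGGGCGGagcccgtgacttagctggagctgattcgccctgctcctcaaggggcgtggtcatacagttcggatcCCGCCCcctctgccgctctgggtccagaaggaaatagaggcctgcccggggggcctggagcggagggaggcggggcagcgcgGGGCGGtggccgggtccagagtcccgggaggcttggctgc
Uap1: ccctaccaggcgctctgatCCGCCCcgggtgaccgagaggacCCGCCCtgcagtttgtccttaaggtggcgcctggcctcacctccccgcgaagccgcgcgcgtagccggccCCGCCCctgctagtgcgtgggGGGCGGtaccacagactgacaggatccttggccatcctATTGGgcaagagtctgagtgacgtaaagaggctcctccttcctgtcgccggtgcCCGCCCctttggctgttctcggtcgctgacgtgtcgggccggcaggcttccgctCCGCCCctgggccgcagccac
Il6: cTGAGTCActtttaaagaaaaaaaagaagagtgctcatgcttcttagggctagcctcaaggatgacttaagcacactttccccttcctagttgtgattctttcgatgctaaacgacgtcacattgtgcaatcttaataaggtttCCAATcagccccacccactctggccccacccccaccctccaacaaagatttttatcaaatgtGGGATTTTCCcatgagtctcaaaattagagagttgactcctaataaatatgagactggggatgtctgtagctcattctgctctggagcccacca
Ptgs2: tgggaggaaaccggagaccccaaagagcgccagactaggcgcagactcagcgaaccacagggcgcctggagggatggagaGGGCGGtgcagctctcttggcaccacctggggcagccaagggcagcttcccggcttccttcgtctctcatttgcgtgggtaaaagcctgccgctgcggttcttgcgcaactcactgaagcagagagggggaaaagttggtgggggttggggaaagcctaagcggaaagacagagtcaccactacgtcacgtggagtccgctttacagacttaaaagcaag

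The Has1 promoter held TGACGTCA at positions -83 to -76 from the annotated start, letters found in 1.79% of the 32851 promoters of the table. The Il6 promoter held GGGATTTTCC, a match to the NF-kappaB motif that 0.411% of promoters hold, at positions -44 to -35, and TGAGTCA, a match to the AP-1 motif that 7.81% hold. The Ugdh, Uap1 and Ptgs2 windows held GC boxes, found in 35.7% of promoters, and Has1, Uap1 and Il6 a CCAAT box, found in 37.4%. The TATA motif, in 13.6% of promoters, was in none of the 5. These are letter matches only, since reads at the 3′ end of transcripts do not show which start was used.

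The members numbered 70 of 2819 gated Tom+ cells, a share of 2.48% (1.94 to 3.13), and 330 of 4191 gated Tom- cells, 7.87% (7.08 to 8.73). The Tom- share was 3.17 times the Tom+ share (2.44 to 4.17). With Has1 left out of the score the 400 highest cells numbered 131 Tom+ and 269 Tom-, a ratio of 1.38, and 179 of the 400 members were among them. The excess in the Tom- library was thus smaller where Has1 did not choose the cells. Members had a median of 13148 UMIs in Tom+ and 12003 in Tom-, against 13957 and 10979 in the rest of the gate, and a median mitochondrial share of 4.18% and 3.77%, against 4.22% and 3.81%. Of 2224 barcodes listed in both libraries, 7 were members, and without such barcodes the ratio of shares was 3.02.

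The score had no gap at the limit. The lowest member scored 0.8368 and the first cell outside 0.8366. The last 20 members lay at or below 0.8481 and the first 20 cells outside at or above 0.8255. The median member scored 0.984 and the median gated cell 0.122, and in 47.2% of gated cells no UMI of the 4 genes was captured. Among cells that the gate left out for 10 or more UMIs of Pi16 and Dpp4, 22.4% of 272 Tom+ and 48.5% of 441 Tom- cells reached the score of a member. High scores thus also occurred in cells outside the gate.

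**Figure D1:**
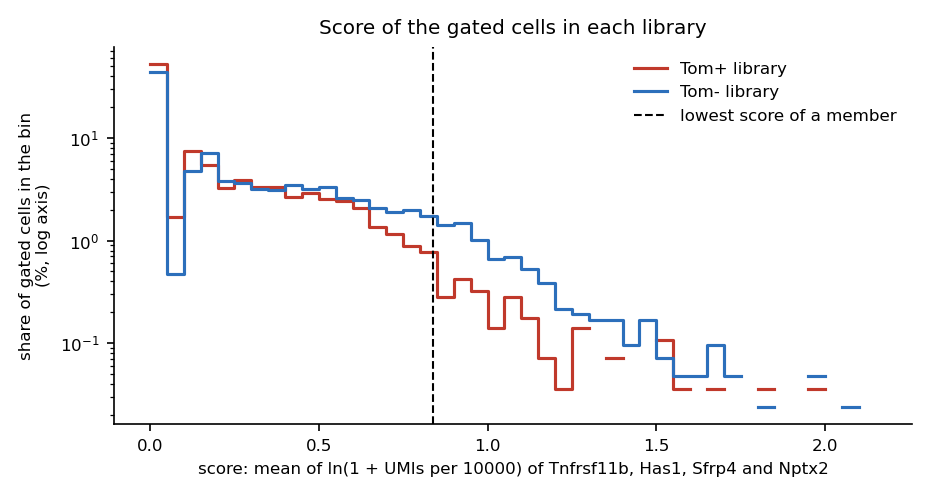
Share of the gated cells of each library (%, log axis) in bins of 0.05 of the score; the dashed line is the lowest score of a member. The Tom- line lies above the Tom+ line around the limit, with 7.87% of Tom- and 2.48% of Tom+ cells at or beyond it.

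Has1 weighed most in the choice of the members, and all 4 genes were detected together in few of them. A Has1 UMI was found in 399 of the 400 members, Sfrp4 in 169, Tnfrsf11b in 94 and Nptx2 in 87. All 4 were found in 19 members, 3 in 74, 2 in 144 and a single one in 163, of which 162 held Has1 alone. At least 2 were thus found in 237 members, and a label of 4 genes describes the score rather than what was detected in most single cells. Since the other 3 genes averaged 0.718 to 5.27 UMIs per member in the 2 libraries, 0 UMIs of one does not show that its RNA was absent. The 4 genes chose the cells, and their levels are given only to describe them. In CPM (counts per 1000000 UMIs summed over the cells of a group), Has1 was at 2511 in Tom+ members and 168 in the rest of the Tom+ gate, and at 3076 and 284 in Tom-. A median member held 30.5 Has1 UMIs in Tom+ and 34 in Tom-. Tnfrsf11b was at 74.0 (Tom+) and 58.5 CPM (Tom-) in the members, and Nptx2 at 96.6 and 82.9 CPM. Sfrp4 was at 379 (Tom+) and 176 CPM (Tom-) in the members, but 201 of the 369 Tom+ Sfrp4 UMIs came from 1 cell, the only member with no Has1. Without it the Tom+ level was 182 CPM, close to that of Tom-.

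Each score gene was also high when it had no part in choosing the cells. With the 400 cells chosen by the other 3 genes, the log2 ratio of members to the rest was 1.497 (1.405 to 1.587) in Tom+ and 1.24 (1.19 to 1.29) in Tom- for Has1. It was 2.07 (1.66 to 2.46) and 2.66 (2.48 to 2.84) for Sfrp4, 3.42 (2.96 to 3.86) and 1.29 (0.879 to 1.67) for Tnfrsf11b, and 3.87 (3.42 to 4.31) and 3.099 (2.849 to 3.348) for Nptx2. The 4 genes were put in 1 score with earlier results of these data known. Their joint occurrence is therefore a description and supports nothing on its own. In most members fewer than 3 of them were detected. Gated cells with fewer than 6959 UMIs were left out of a count at fixed depth, which kept 2603 Tom+ and 3706 Tom- cells. In the Tom- cells thinned to 6959 UMIs, Sfrp4 was detected in 22.9% (15.4 to 32.0) of cells with Tnfrsf11b, 25 cells, and in 4.95% (4.26 to 5.71) of those without it. In Tom+ it was detected in 10.1% (4.47 to 19.0) of cells with Tnfrsf11b, 8 cells, and in 4.32% (3.56 to 5.19) of those without it, so that the exact binomial intervals, which cover counting error only, overlapped there. In a neighbour search on 30 principal components of 2000 variable genes, without the score and gate genes, 29.4% of the 20 nearest neighbours of a Tom+ member and 30.8% of those of a Tom- member were members on average. Members made up 5.71% of the gate.

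The members carried the markers of stromal progenitors. Dcn, which encodes the matrix proteoglycan decorin, was at 17830 (Tom+) and 20960 CPM (Tom-) in the members, and all 15 progenitor markers were detected in each library, at a sum of 48370 and 51760 CPM. In the rest of the gate that sum was 57470 and 61520 CPM. The 15 immune markers summed to 30.8 (Tom+) and 19.7 CPM (Tom-) in the members, led by Cd74, with Adgre1, Cd3e and Nkg7 at 0 in both, against 368 and 145 CPM in the rest. The 10 endothelial markers summed to 6.17 and 11.4 CPM, led by Flt1 and Pecam1, with Cdh5 and Cldn5 at 0, and the 10 adipocyte markers to 2.06 and 1.73 CPM, led by Plin1 and Cfd, with Adipoq and Cidec at 0. A count of 0 allows up to 3.08 CPM in the Tom+ and 0.741 CPM in the Tom- members. The 10 mural markers, led by Des, summed to 142 and 91.6 CPM with Higd1b at 0, and the 8 Schwann markers, led by Mbp, to 17.5 and 9.13 CPM with Sox10 at 0. The 15 mesothelial markers summed to 366 and 535 CPM, of which Wt1 made up 252 and 390, against 285 and 427 CPM in the rest of the gate. The part of the cells behind these markers in the results below was not tested.

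Ratios of members to the rest of the gate were computed in each library on its own, for the 9616 genes whose mean reached 5 CPM. They are a description, since the members were chosen on the counts of these same cells. The median log2 ratio of all genes was -0.15 in either library, so lists are read against that median. The share of all genes above or below it in both libraries is not given here, so such list counts are a description only. Under median-of-ratios scaling the 2 medians moved to -0.013 and 0.016. A gene is called higher or lower here where its log2 ratio was at least 1 or at most -1 in both libraries. By this rule 103 genes (1.07%) were higher and 147 (1.53%) lower. With median-of-ratios size factors these numbers were 151 and 101.

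**Figure D2:**
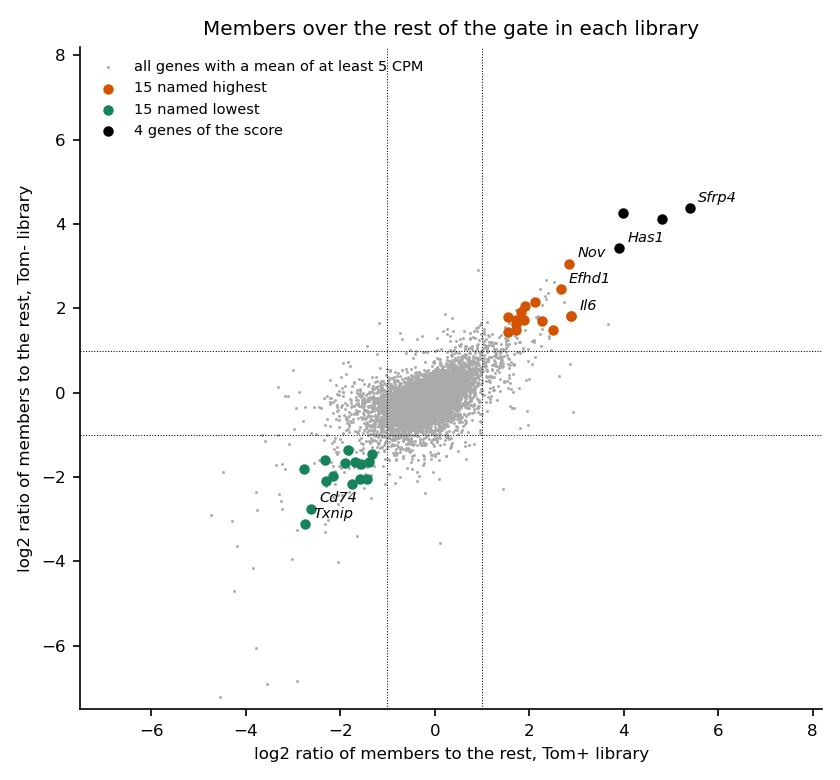
Log2 ratio of members to the rest of the gate in the Tom+ library (x axis) and in the Tom- library (y axis), 1 point per gene, with dotted lines at 1 and -1. The 4 genes of the score lie at the upper right by choice of the cells; the 15 named highest and 15 named lowest genes lie beyond the dotted lines in both libraries. Genes at 0 UMIs in a group are not drawn.

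Some genes of hyaluronan synthesis were high in the members of both libraries, and others were not. Of 14 hyaluronan genes with enough RNA, 11 lay above the median of all genes in both libraries and 6 were called higher, Has1 of the score among them, with a list median of 1.02 in Tom+ and 0.94 in Tom-. Ugdh, which oxidises UDP-glucose to UDP-glucuronic acid, was at 2183 CPM in Tom+ members and 666 CPM in the rest, and at 2055 and 730 CPM in Tom-. Its log2 ratios were 1.71 (1.65 to 1.78) and 1.49 (1.46 to 1.53). Gfpt2, of the first step of the hexosamine pathway, was at 1097 against 381 CPM in Tom+ and 1277 against 528 CPM in Tom-. Both sugar precursors of the polymer thus had a synthesis gene at a log2 ratio above 1 in either library. Gfpt1, a further gene of that hexosamine step, was not high in either library, as given below. Uap1, which makes UDP-N-acetylglucosamine and was not in that list, was at 712 against 191 CPM in Tom+ and 832 against 252 CPM in Tom-. Has2, a second hyaluronan synthase, was at 109 against 37.1 CPM and 104 against 29.7 CPM, log2 ratios of 1.56 (1.26 to 1.84) and 1.81 (1.65 to 1.97). Has3 was at 0 in Tom+ and at 0.247 CPM in Tom- members, so the RNA of the synthases was nearly all that of Has1 and Has2.

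Genes of proteins that bind or cross-link hyaluronan varied. Tnfaip6, whose product transfers heavy chains onto hyaluronan, was at 2215 (Tom+) and 3472 CPM (Tom-) in the members, against 751 and 1368 CPM in the rest, log2 ratios of 1.56 (1.496 to 1.623) and 1.34 (1.317 to 1.37). Ptx3, a pentraxin of the same cross-linked matrix, was at 654 and 1210 CPM against 295 and 476 CPM. Of 3 pentraxins with enough RNA, Ptx3 and Nptx2 were called higher, and the call of Nptx2 is set by the score that holds it. In cells chosen without Has1, where Nptx2 was still in the score, 1 of the 3 was called higher. The receptor Cd44 had log2 ratios of 0.57 and 0.79, and the proteoglycan Vcan 0.89 and 1.08. Itih5, a heavy chain gene, was at -0.55 in Tom+ and -0.12 in Tom-. Gfpt1, a gene of synthesis rather than of binding, was at -0.23 and -0.12, unlike Gfpt2. With Has1 left out of the score, 10 of 16 genes of the list lay above the median of all genes in both libraries, 3 were called higher and the list medians were 0.39 in Tom+ and 0.49 in Tom-.

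**Figure D3:**
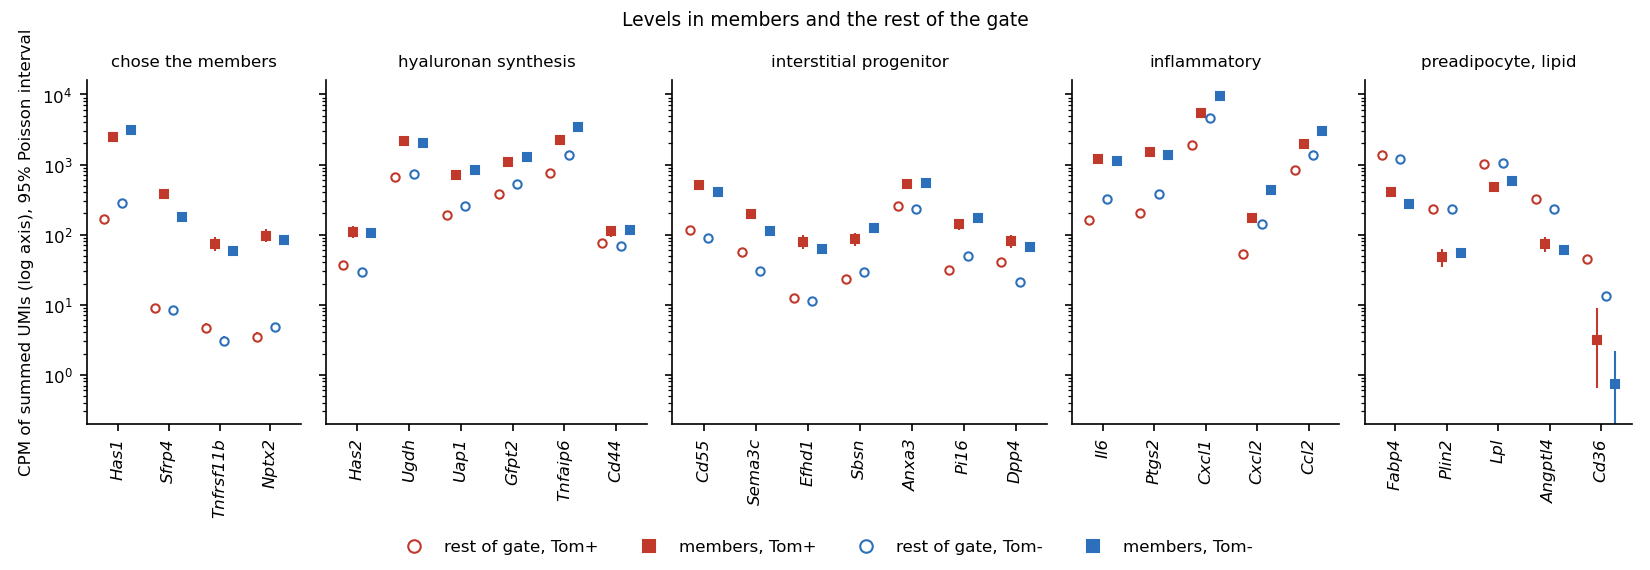
CPM of summed UMIs (log axis) for genes of 5 groups in the rest of the gate (open circles) and in members (filled squares) of the Tom+ (red) and Tom- (blue) libraries, with 95% Poisson intervals; the first group chose the members and the gate limits Pi16 and Dpp4. Squares lie above circles in the hyaluronan, interstitial and inflammatory groups and below them in the preadipocyte and lipid group.

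The pathways of the secreted score genes were little represented. Of the 4 genes with enough RNA in the osteoprotegerin list, only Tnfrsf11b itself was called higher, and that call is set by the score that holds it. Tnfrsf11b was at 4.66 (Tom+) and 3.03 CPM (Tom-) in the rest, so it reached the mean of 5 CPM only through the members. Its ligands were at or near the limit of detection, with Tnfsf11 (RANKL) at 0 in Tom+ and 0.987 CPM in Tom- members and Tnfsf10 (TRAIL) at 0 and 0.494 CPM, and the RANKL receptor gene Tnfrsf11a was at 0 in both. Of 6 secreted Wnt modulators, 5 lay above the median of all genes in both libraries, but only Sfrp4 was called higher, a call set by the score. Sfrp2, a related Wnt modulator, was at 267 against 213 CPM in Tom+ and 354 against 213 CPM in Tom-, and Sfrp1 at 502 against 282 CPM and 353 against 434 CPM, in opposite directions. Of 25 Wnt ligands, receptors and targets, 10 lay above and 7 below the median in both libraries, and Axin2, a feedback target of Wnt signals, was called lower at 4.11 against 12.2 CPM and 2.22 against 5.67 CPM. That call rests on 4 Tom+ and 9 Tom- UMIs, and none of the list was called lower with 200 members, with mitochondrial UMIs under 5%, or with Has1 or Nptx2 left out of the score.

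Interstitial progenitor genes were high as a group. All 17 of those with enough RNA lay above the median of all genes in both libraries and 9 were called higher, with list medians of 1.04 in Tom+ and 1.49 in Tom-. Pi16 and Dpp4 belong to this list and were held below 10 UMIs per cell by the gate. With Has1 left out of the score, 18 of 18 lay above that median and 13 were called higher, with list medians of 1.27 and 1.83. Cd55, a complement-regulating surface protein, was at 515 CPM in Tom+ members and 118 CPM in the rest, and at 402 and 89.6 CPM in Tom-, log2 ratios of 2.12 (1.99 to 2.26) and 2.16 (2.08 to 2.248). Sema3c, a secreted semaphorin, was at 198 against 55.5 CPM and 114 against 30.1 CPM. Efhd1, a calcium-binding mitochondrial protein, was at 78.1 against 12.3 CPM and 62.4 against 11.3 CPM, and Sbsn, suprabasin, at 86.3 against 23.1 CPM and 124 against 29.6 CPM. These 4 genes had log2 ratios of 1.84 or more in both libraries. Outside the list, Nov, a matricellular protein of the CCN family, led the 15 named highest genes, which were ranked by the library nearer to 0, at log2 ratios of 2.85 (2.49 to 3.19) in Tom+ and 3.06 (2.84 to 3.28) in Tom-. Its levels were 84.3 and 76.3 CPM, with UMIs in 67 of the 330 Tom- members and 96 of the 309 Tom- UMIs in 1 cell. Col14a1, a fibril-associated collagen, was at 645 against 196 CPM in Tom+ and 372 against 113 CPM in Tom-.

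Cells with 10 or more UMIs of the interstitial markers Pi16 and Dpp4, which the gate leaves out, had the 4 interstitial genes just named at still higher levels, and were themselves chosen by genes of that list. Cd55 was at 959 CPM in the 272 Tom+ and 1070 in the 441 Tom- cells of that kind, Sema3c at 608 and 568 CPM, Efhd1 at 234 and 249 CPM, and Sbsn at 308 and 519 CPM. Nov and Col14a1 were also higher there than in the members. Nov was at 124 and 184 CPM against 84.3 and 76.3 CPM, and Col14a1 at 818 and 730 CPM against 645 and 372 CPM. Igfbp5, an IGF binding protein, was at 614 and 733 CPM there and at 115 and 73.8 CPM in the members. Among the score genes, Sfrp4, Nptx2 and Tnfrsf11b were higher there than in the members in Tom- only. Their Tom- levels were 278 against 176 CPM, 117 against 82.9 CPM and 74.8 against 58.5 CPM. In Tom+ they were lower there, at 160 against 379 CPM, 39.6 against 96.6 CPM and 39.8 against 74.0 CPM. Has1 was lower there than in the members in both libraries. In turn, Il6 was at 116 and 243 CPM in these cells against 1187 and 1135 CPM in the members, and Adamts4, an aggrecan-cleaving protease, at 25.6 and 45.7 CPM against 231 and 266 CPM. Of 9476 genes, 144 (1.52%) were at least 2-fold higher and 135 (1.42%) at least 2-fold lower in the members than in these cells, in both libraries. Hyaluronan synthesis genes were high in these cells too, with Ugdh at 1782 and 2537 CPM, Has2 at 128 and 168 CPM and Uap1 at 479 and 891 CPM, against 2183 and 2055, 109 and 104, and 712 and 832 CPM in the members.

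Inflammatory mediators were also high in the members. Il6, a cytokine, was at 1187 CPM in Tom+ members and 161 CPM in the rest, and at 1135 and 321 CPM in Tom-, log2 ratios of 2.89 (2.80 to 2.98) and 1.82 (1.77 to 1.87). Ptgs2, the inducible cyclooxygenase, was at 1510 against 203 CPM and 1347 against 384 CPM, log2 ratios of 2.89 (2.81 to 2.97) and 1.81 (1.77 to 1.86). For both genes the rest of the Tom+ gate was the lowest group and the members of the 2 libraries were close. Of 23 chemokine and cytokine genes, 13 lay above the median of all genes in both libraries and 3 below it, with 6 called higher. The neutrophil chemokine Cxcl1 was at 5505 against 1930 CPM in Tom+ and 9630 against 4633 CPM in Tom-, and Ccl2, a monocyte chemokine, at 1934 against 832 CPM and 2998 against 1361 CPM. Cxcl2 was at 172 against 51.9 CPM in Tom+, with UMIs in only 10 of 70 cells, and 437 against 142 CPM in Tom-. By contrast, the B cell chemokine Cxcl13 was lower, at 3.08 against 37.2 CPM and 52.8 against 116 CPM. With Has1 left out of the score none of the 23 was called higher and 2 were called lower, 10 lay above the median of all genes and 7 below it, and the list medians were 0.17 in Tom+ and 0.062 in Tom-, from 0.56 and 0.62. The log2 ratio of Il6 was then 0.65 in Tom+ and 0.062 in Tom-, and that of Ptgs2 1.71 and 1.25.

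All but 1 of the 15 NF-kappaB factors and inhibitors lay above the median of all genes in both libraries, and none lay below it in both. Nfkb1, the p105 and p50 subunit, was at 1044 against 314 CPM in Tom+ and 1358 against 548 CPM in Tom-, log2 ratios of 1.73 (1.64 to 1.83) and 1.31 (1.27 to 1.35). Bcl3, a nuclear partner of p50, had log2 ratios of 1.45 (1.15 to 1.74) and 1.04 (0.891 to 1.18). Rela was at 0.23 and 0.15. In cells chosen without Has1, 7 of the 15 lay above and 4 below the median of all genes in both libraries, none was called, and the list medians were 0.059 and 0.14, from 0.39 and 0.42. Of the fibro-inflammatory progenitor genes, 8 of 12 lay above the median in both libraries and 5 were called higher, among them Ly6c1, a surface antigen with a near-identical copy that could share its reads, at 1021 against 504 CPM and 874 against 394 CPM. In cells chosen without Has1, 1 of the 12 was called higher. Saa3, of the same list, was lower in Tom+ members only, at 32.9 against 122 CPM, and at 159 against 143 CPM in Tom-.

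Committed preadipocyte genes were low in the members. Of 18 committed preadipocyte genes, 16 lay below the median of all genes in both libraries and 5 were called lower, with list medians of -0.86 in Tom+ and -0.73 in Tom-. In cells chosen without Has1 these numbers were 17 and 8, and the medians -1.03 and -1.04. With 200 members they were 16 and 11, and the medians -1.23 and -1.17. Fabp4, a fatty acid carrier, was at 401 CPM in Tom+ members and 1353 CPM in the rest, and at 269 and 1201 CPM in Tom-, log2 ratios of -1.76 (-1.90 to -1.61) and -2.16 (-2.25 to -2.07). Plin2, a lipid droplet coat protein, was at 47.3 against 234 CPM and 55.0 against 234 CPM. Pparg, the master regulator of fat cell formation, was at 1.03 CPM, a single UMI, against 22.8 CPM in Tom+ and at 7.40 against 27.2 CPM in Tom-. The fatty acid receptor Cd36 was at 3.08 against 44.4 CPM and 0.740 against 13.2 CPM. Its levels in the members are about what 0 UMIs allow, 3.08 CPM in Tom+ and 0.741 CPM in Tom-. Angptl4 and G0s2, secreted and intracellular inhibitors of lipases, had log2 ratios of -2.15 and -1.96, and of -1.83 and -1.36. Icam1 was the exception, at 302 against 204 CPM and 316 against 242 CPM. It was the single gene of the list above the median of all genes in both libraries.

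Among the other named lowest genes, Txnip, a thioredoxin inhibitor induced by glucose, had the lowest ratio in Tom-, -3.11 (-3.33 to -2.90), and -2.74 (-3.08 to -2.43) in Tom+. Agt, angiotensinogen, was at 92.5 against 276 CPM in Tom+ and 68.4 against 282 CPM in Tom-, and Trf, transferrin, at 327 against 852 CPM and 444 against 1376 CPM. Cd74, of antigen presentation, was at 8.22 against 50.4 CPM and 10.6 against 71.2 CPM. The others were Aspa, Gm14964, Fndc5, Arc, Nmb, Hspa1a and Jun. Hspa1a has a near-identical copy, Hspa1b, and its count is uncertain for that reason. Jun was abundant in both groups, at 867 against 2805 CPM in Tom+ and 1089 against 3397 CPM in Tom-.

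Of 21 collagen genes, 15 lay below the median of all genes in both libraries, with list medians of -0.47 and -0.46, but 0 were called lower. A score without Has1 gave list medians of -0.13 and -0.093. With 200 members, 16 of 20 lay below the median of all genes in both libraries and 3 were called lower. Col4a1, of basement membranes, was at 761 against 1481 CPM in Tom+ and 646 against 1027 CPM in Tom-, and Col3a1, a fibrillar collagen, at 4698 against 6326 CPM and 2913 against 3993 CPM. Only Col14a1 and Col12a1, both fibril-associated, were called higher, the latter at 45.2 against 9.88 CPM and 37.0 against 10.7 CPM. Of 40 other matrix genes, 22 lay above the median of all genes in both libraries and 7 below it, with list medians of 0.10 and 0.16, and 0 were called higher and 1, the collagen-binding Fmod, lower. Fn1, fibronectin, was at 3357 against 1696 CPM and 2545 against 974 CPM, and Fbn1, fibrillin, at 1310 against 822 CPM and 1112 against 512 CPM. Of 27 matrix proteases and inhibitors with enough RNA, 12 lay above and 9 below the median of all genes in both libraries, with list medians of -0.14 in Tom+ and -0.038 in Tom-. Adamts4 and Adamts9 were called higher and Adam12 and Pappa lower. The proteases Adamts4 and Adamts9 had log2 ratios of 2.50 and 2.05 in Tom+ and 1.49 and 1.23 in Tom-, but with Has1 left out of the score Adamts4 was at 0.56 and -0.063. Of the remaining named highest genes, Rdh10, which makes retinal from retinol, had log2 ratios of 2.26 and 1.70, and Flrt3, an adhesion protein, 1.55 and 1.45, with 32 of its 69 Tom+ UMIs in 1 cell.

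The members were also described by the score genes detected in them, a split that uses the values of the score itself and in which 0 UMIs do not show that an RNA was absent. The 162 members with Has1 alone (20 Tom+ and 142 Tom-) were set beside the 237 with Has1 and another score gene (49 and 188). Cells with Has1 alone detected needed more of it to reach the limit, and had it at 4468 CPM against 2132 CPM. They were also shallower, with a median of 11600 UMIs in Tom+ and 10970 in Tom-, against 13290 and 12540, and the part of depth in what follows was not tested. In Tom+, Il6 was at 2261 CPM (2081 to 2453) with Has1 alone and at 863 CPM (794 to 936) with another score gene. In Tom- it was at 1917 CPM (1849 to 1986) and 631 CPM (600 to 663). Adamts4 was at 492 and 412 CPM against 138 and 171 CPM, and Fabp4 at 617 and 379 CPM against 297 and 198 CPM. Since the score fixes more Has1 in the first group, these values are a description and support nothing on their own.

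Among the interstitial progenitor genes, Cd55 differed the other way. In Tom+, it was at 184 CPM (135 to 244) with Has1 alone and at 681 CPM (620 to 747) with another score gene. In Tom- it was at 143 CPM (125 to 163) and 568 CPM (539 to 599). Sema3c was at 66.4 and 28.4 CPM against 264 and 169 CPM, and Efhd1 at 27.3 and 13.9 CPM against 104 and 93.7 CPM. In the 142 Tom- members with Has1 alone, Nov was at 8.19 CPM (4.36 to 14.0), Sema3c at 28.4 CPM (20.7 to 37.9) and Efhd1 at 13.9 CPM (8.687 to 20.99), against 9.13, 30.1 and 11.3 CPM in the rest of the Tom- gate. Cd55 and Sbsn were higher in these cells than in the rest of the Tom- gate, at 143 against 89.6 CPM and 54.8 against 29.6 CPM. In the 20 Tom+ members with Has1 alone, Nov was at 50.8 CPM (27.0 to 86.8), from 13 UMIs, against 11.7 CPM in the rest of the Tom+ gate. As a list, interstitial progenitor genes had medians over the rest of 0.40 in Tom+ and 0.48 in Tom- in the cells with Has1 alone, and of 1.41 and 1.66 in the others. Ugdh and Ptgs2 were above the rest of the gate in both groups of members. Ugdh was at 2394 and 1762 CPM against 2264 and 2244 CPM, Ptgs2 at 1890 and 1356 CPM against 1478 and 1342 CPM, and the hyaluronan list had medians of 1.26 and 0.73 against 0.71 and 1.

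**Figure D4:**
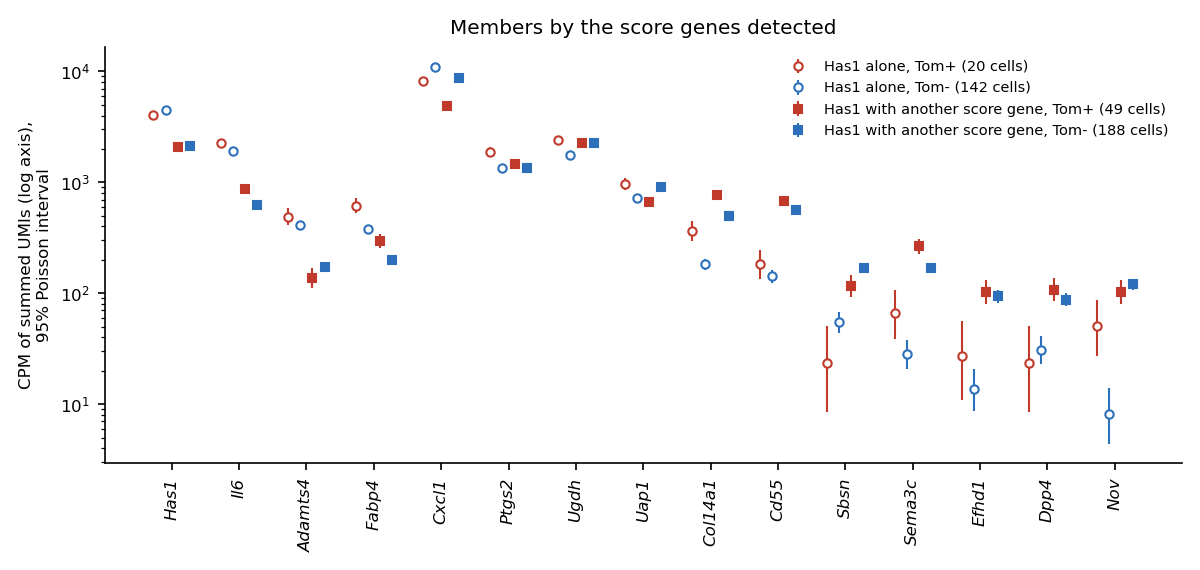
CPM of summed UMIs (log axis) with 95% Poisson intervals in members that held Has1 alone (open circles) and Has1 with another score gene (filled squares), in the Tom+ (red) and Tom- (blue) libraries. Il6 and Adamts4 are higher in the circles and Cd55, Sema3c, Efhd1 and Nov higher in the squares.

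Within the members, the 70 Tom+ and 330 Tom- cells were compared as a level of each library, with the same ratio in the rest of the gate beside it. Of 9316 genes, 1295 (13.9%) were at least 1.5-fold higher and 651 (6.99%) at least 1.5-fold lower in Tom+, at a median of 0.12 over all genes. With median-of-ratios size factors that median was -0.031 and the split turned to 841 higher and 1042 lower. The RNA of tdTomato, which marks the sort, was at 197 (Tom+) and 8.88 CPM (Tom-) in the members, a log2 ratio of 4.47 (3.95 to 5.03), against 3.46 in the rest of the gate. It was found in 15 of 70 Tom+ members (21.4%), where 2 cells held 65 and 46 of 192 UMIs, and in 33 of 330 Tom- members (10.0%), none with more than 2 UMIs. The shares in the rest of the gate were 25.4% and 13.1%. With every cell thinned to 6959 UMIs, which left out 5 Tom+ and 29 Tom- members and 211 Tom+ and 456 Tom- cells of the rest, they were 20% and 7.97% of members and 15.7% and 8.40% of the rest. The reporter RNA was thus higher in the library labelled Tom+, although most Tom+ members had no tdTomato UMI at this depth. Cdkn2a, the gene of p16, was at 12.3 CPM from 12 UMIs in Tom+ and 6.17 CPM in Tom- members, against 4.54 and 3.95 CPM in the rest.

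Of the 15 named highest genes of the members, Sema3c, Col14a1 and Cxcl2 differed by at least 1.5-fold between the members of the 2 libraries. Il6 had a log2 ratio of Tom+ over Tom- of 0.065 (-0.029 to 0.16) within the members, against -1.002 in the rest of the gate, Ptgs2 of 0.16 (0.080 to 0.25) against -0.92, and Adamts4 of -0.20 (-0.41 to 0.0093) against -1.21. Has1 was at -0.76 in the rest and at -0.29 in the members, where the score itself sets it. The part of this selection on Has1 in the ratios of Il6, Ptgs2 and Adamts4 within the members was not tested. Sema3c and Col14a1 had ratios of 0.80 and 0.79, close to their 0.88 and 0.80 in the rest. Of 23 chemokine and cytokine genes, 19 lay below the median of all genes in Tom+ over Tom-, with a list median of -0.67 (-0.71 in the rest), and 25 of 28 immediate early genes did, with -0.25 (-0.31 in the rest).

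Of the 10 genes highest in Tom+ members, Cpe, a peptide-processing enzyme, had the largest ratio, 4.70 (3.93 to 5.56), but its 100 Tom+ UMIs came from 9 cells. The cell with no Has1 held 39 of them, and without it the ratio was 4.07. Igkc and Ighm, immunoglobulin genes that stromal cells lack, had ratios of 1.33 and 1.61, close to their 1.56 and 1.63 in the rest, and an Igkc UMI was found in 68 of 70 Tom+ and 277 of 330 Tom- members at 13148 and 12003 UMIs per cell. A UMI in a cell is therefore not taken as expression here. Cd109, Pi15, C1qtnf6, Nrep and Ust followed at 1.12 to 1.63, and Sfrp4 at 1.10. Without the cell that has no Has1, C1qtnf6 was at 0.97, Nrep at 0.62 and Sfrp4 at 0.046, while Cd109, Pi15 and Ust stayed at 1.18 to 1.63. The lowest were led by Cxcl10, an interferon-induced chemokine, at 20.6 (Tom+) and 114 CPM (Tom-) in the members, and the acute phase gene Saa3. Alkal2, Gm17056, Iigp1, Lcn2, Hsd11b1, Il33 and Cxcl2 followed, from -2.16 to -1.35. Hsd11b1, which activates glucocorticoids, was at 53.5 against 158 CPM and had a like ratio in the rest, -1.29.

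**Figure D5:**
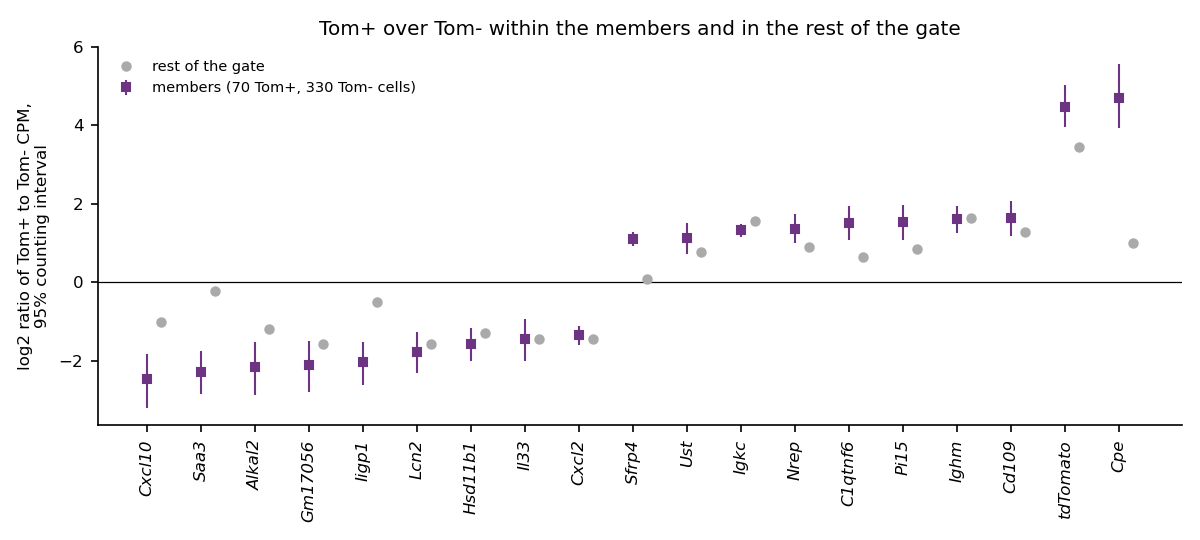
Log2 ratio of Tom+ to Tom- CPM within the members (squares, 95% counting interval) and in the rest of the gate (grey circles) for the 10 highest and 9 of the 10 lowest genes of the members. tdTomato and Cpe lie highest at 4.47 and 4.70, and Cxcl10 and Saa3 lowest; for Il33, Igkc and Ighm the circle lies near the square, and for Cpe, Sfrp4 and Saa3 far from it.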

How the data were processed

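CD31- CD45- gWAT cells of p16-CreERT2/Rosa26-LSL-tdTomato mice were sequenced as 1 Tom+ and 1 Tom- library. The authors made the deposited counts, whole UMIs per gene and barcode without normalization, with Cell Ranger 3.0.2 on mm10. Members, gene lists and comparisons were chosen with earlier results of these data known. Here, UMIs were summed over members and over the rest of the gate of each library and scaled to CPM, with Python 3.11.15, numpy 2.4.6, pandas 2.3.3 and scipy 1.17.1. Poisson, conditional binomial and Clopper-Pearson intervals (95%) cover counting error only. The ratio step was tested on simulated Poisson sums. Those sums held no variation between cells and no choice of members, so the test cannot speak for either. Named genes were the 4 score genes, the 15 highest and 15 lowest ratios by the library nearer to 0 (at least 50 CPM in members or the rest of both libraries, same sign in both), the 10 highest and 10 lowest in Tom+ over Tom- members (mean of at least 50 CPM), and leading genes of 34 fixed lists, of which 1 symbol was not in the table. Scrublet in scanpy 1.11.5 called 2 of 3524 Tom+ and 122 of 6717 Tom- cells doublets, none of them members. For shares at a fixed depth and for 1 score alternative, cells were thinned to 6959 UMIs. Alternatives added after seeing the data left out barcodes listed in both libraries, cells over 2 times the median UMIs, or the member without Has1. The study's test over cells was not used, because cells of 1 library are not replicates. 1 gene of the 10 lowest in Tom+ over Tom- members and 1 marker gene are not reported here.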

Additional observations from a re-analysis of the deposited data

Results flagged for a closer look

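For 4 of the named genes the ratio of members to the rest of the gate pointed up in one library and down in the other, with both counting intervals clear of 0 and of the median of all genes (-0.15). The difference between the libraries was not tested. For tdTomato the log2 ratio was 0.38 in Tom+ and -0.64 in Tom-, a difference of 1.01, and 2 Tom+ cells held 65 and 46 of the 192 Tom+ UMIs. For Cxcl10 it was -0.95 in Tom+ and 0.52 in Tom-, a difference of -1.46, with 20 UMIs in the Tom+ members and 461 in the Tom- members. For Saa3 it was -1.89 in Tom+ and 0.16 in Tom-, a difference of -2.05, and 1 Tom- cell held 209 of 645 UMIs. For Sfrp1 it was 0.83 in Tom+ and -0.30 in Tom-, a difference of 1.13. For Iigp1 the ratios were -0.52 and 1.03, and its Tom+ interval (-1.10 to -0.0062) was clear of 0 but not of that median.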

How the results depend on the processing

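No paired analysis was possible because each fraction is 1 library with no replicate numbers, and no replicate could be left out. The Tom- to Tom+ ratio of member shares was 2.47 to 3.47 in all other settings and 1.38 with Has1 left out of the score. In that setting 13 rather than 21 lists lay above the median of all genes, counted among lists with at least 3 genes of enough RNA. Adamts4 in Tom- was then at -0.063. With 200 members, 224 genes were lower than in the rest (147 with 400) and 1119 lower in Tom+ than in Tom- members (651 with 400), Nrep was at -0.037 and Sfrp4 at -0.67 in Tom+ over Tom- members; with 800 members, the lower genes were 91 and 354. The Tom+ to Tom- ratio of Sfrp4 was also below 0 with Sfrp4 left out of the score (-0.50), without shared barcodes (-0.076) and without cells over 2 times the median UMIs (-0.085). With median-of-ratios size factors, 841 genes were higher and 1042 lower in Tom+ members. With a floor of 1 CPM, 163 genes were higher and 435 lower in members than in the rest, and 2314 higher and 1361 lower in Tom+ members. With 50 neighbours, members made up 26.5% of the neighbours of Tom+ and 28.8% of those of Tom- members. Of the remaining values, 83 counts and shares stayed within 1.5 times or the counting interval; of the single gene values 930 did so, 364 moved by more, and 6 turned sign. Depth limits the Tom+ members most: 0 UMIs there, read as at most 3, allow up to 3.08 CPM. Cells of very high UMIs also weigh heavily in a sum over 70 cells.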

Other observations

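Immediate early genes respond to stress and to tissue dissociation. As a list they lay near the median of all genes in the members. The list medians were -0.149 in Tom+ and -0.137 in Tom-, against -0.150 and -0.145 for all genes, so the counts that follow are a description only. Of 28, 14 lay above the median of all genes in both libraries and 13 below it in both, and 7 and 21 did so in cells chosen without Has1. Fos was at 3543 CPM in Tom+ members and 6225 CPM in the rest, and at 3877 and 7303 CPM in Tom-, and Jund at 1673 against 2764 CPM and 2054 against 3654 CPM. Fosl1, another Fos family member, was at 110 against 30.0 CPM and 118 against 59.8 CPM, and Fosl2 at 822 against 343 CPM and 774 against 420 CPM. Cebpb, a transcription factor of both inflammation and early fat cell formation, was at 3274 against 1744 CPM and 4428 against 3026 CPM.

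Among 25 TGF-beta genes, 18 lay above the median of all genes in both libraries and 5 below it, but 0 were called higher or lower. With 200 members 10 lay above and 7 below, and 1 was called higher. The receptor Tgfbr2 was at 244 against 148 CPM in Tom+ and 230 against 119 CPM in Tom-, and the feedback genes Skil, Pmepa1 and Smad7 had log2 ratios of 1.06, 0.92 and 0.74 in Tom+ and 0.66, 0.65 and 0.32 in Tom-. The target Tgfbi was at 83.3 against 196 CPM and 98.0 against 157 CPM. Igf1, a growth factor, was at 254 against 527 CPM and 337 against 768 CPM. Cilp, a cartilage matrix protein, was at 524 against 122 CPM and 333 against 140 CPM. Of 12 complement genes, 9 lay above the median and 2 below it, and 1, Cd55, was called higher; with Has1 left out of the score 4 lay above and 5 below, at list medians of -0.022 and -0.068. C3 was at 6176 against 4851 CPM and 6644 against 5116 CPM. Of 14 cell cycle arrest and senescence genes, 10 lay above it and 3 below. Gdf15, a stress cytokine, was at 4.11 against 40.7 CPM and 4.69 against 24.9 CPM. Its level in the Tom+ members rests on few UMIs, near the 3.08 CPM that 0 UMIs allow there.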
